A study of Homo sapiens with 62 samples.

Results

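The genes described here encode 10 splicing factors that carry arginine and serine rich (RS) domains: SRSF1, SRSF2, SRSF3, SRSF4, SRSF5, SRSF6, SRSF7, SRSF11, TRA2A and TRA2B. They were taken by gene name from tables of 29794 genes, and all 10 names had a row in each table. Newly made and total RNA were measured in 62 SLAM-seq libraries from the human pancreatic ductal adenocarcinoma lines AsPC-1 (42 libraries) and T3M-4 (20 libraries), in 12 groups. By the genotype label, every group carried the same alleles: endogenous KLF5, a transcription factor of epithelial cells, was targeted by a CRISPR guide, and cells expressed a KLF5 copy with FKBP12-F36V and FLAG tags. The methods describe drug selection of such cells and no step that isolates single clones. In SLAM-seq, 4-thiouridine (4sU) enters RNA made during a labelling window, here 2 h, and after alkylation reads of that RNA carry T>C conversions.

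Cells were treated for 4 h unless stated. The dTAG groups received dTAGv-1, which directs the tagged KLF5 to degradation, and the NEG groups received its inactive analogue (10 libraries each in AsPC-1, 4 each in T3M-4). CB-6644, an inhibitor of the RUVBL1/2 ATPases, was compared with the solvent DMSO (5 libraries each at 4 h and 4 each at 12 h in AsPC-1, 4 each at 4 h in T3M-4). NVP-2, an inhibitor of the elongation kinase CDK9, was given to 4 libraries in each line and set against the DMSO libraries that CB-6644 had at 4 h. The AsPC-1 NVP-2 libraries carry the label batch 2 and the DMSO 4 h libraries batch 1, without a statement of what a batch shares. The effect of NVP-2 and that of the batch cannot be told apart there. The batch 2 controls of other groups were used as a check. Replicate names such as 1.2 were read as the experiment, then the library within it, which is an inference from the names. The labels do not say which libraries came from separate cultures, so p-values measure the spread between libraries, which may be technical in part. In bulk RNA, fewer transcripts in each cell and fewer cells with the transcript cannot be told apart.

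SR proteins bind exonic sequences with their RNA recognition motifs and recruit the spliceosome with their RS domains, which kinases of the SRPK and CLK families phosphorylate. SRSF1, SRSF2 and SRSF3 are compact classical members, SRSF4, SRSF5 and SRSF6 form a related group with a pair of recognition motifs, SRSF7 carries a zinc knuckle beside its recognition motif, SRSF11 is a larger and more divergent protein, and TRA2A and TRA2B are SR-like regulators. Many SR genes hold ultraconserved exons with early stop codons, through which the proteins limit their own mRNA, and their transcripts are known for fast turnover.

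A library held between 2240998 and 27982537 T>C reads, fewest after NVP-2, and between 82676553 and 244524608 reads in all. The line labels were checked in the DMSO 4 h libraries: the classical marker HNF4A was at 12.9 to 23.9 CPM (counts scaled to a common library total) of all reads in AsPC-1 and 0.124 to 0.453 in T3M-4, and the basal marker TP63 at 0 to 0.124 and 17.4 to 28.3. The leukocyte and endothelial markers PTPRC and PECAM1 stayed under 1 CPM in both lines, and the fibroblast marker COL1A1 was at 0 to 0.0373 CPM in AsPC-1 and 5.68 to 8.66 in T3M-4. KLF5 T>C reads were higher after dTAG than NEG, at log2 changes of 0.60 in AsPC-1 and 0.90 in T3M-4, which does not check the treatment since the degrader acts on the protein. Outside NVP-2, a member had 556 to 50313 T>C reads in a library. In NVP-2 libraries it had 57 to 14533, and a labelled share there had a 95% Wilson interval of at most 0.672 points to either side, for counting error only. The background of T>C conversion was not measured, as no library without 4sU was analysed here.

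The reads come from the 3′ ends of transcripts, and the counts sum the annotated 3′UTR exons of a gene. The ends described next belong to the reference transcript of each gene, and reads from other ends could count as well. In the last 200 bases of the 10 reference transcripts (GENCODE v44, hg38), 59 to 81 bases were T, the positions that can convert, with the fewest in SRSF1 and the most in SRSF7. The 3′UTRs ran from 547 bases in SRSF5 to 4490 in SRSF1. The last 30 bases are shown for 5 members that the results turn on, with a polyadenylation signal (AATAAA or the variant ATTAAA) in capitals where this stretch holds one, and all of these lie in the 3′UTR.
SRSF4 3′ end, chr1:29147743-29147772, minus strand: ttgAATAAAgactatttttgcttgacaaaa
SRSF6 3′ end, chr20:43464214-43464243, plus strand: attacacAATAAAacttagagttcttgcaa
SRSF7 3′ end, chr2:38743599-38743628, minus strand: acAATAAAtctgcagagattgaacaaataa
SRSF11 3′ end, chr1:70253023-70253052, plus strand: taaaAATAAAagtggtttttgttagaaaaa
TRA2B 3′ end, chr3:185914558-185914587, minus strand: tataatgtaaagacttaaaagtgacaagaa

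The signal ended 21 bases before the annotated end in SRSF4, 17 in SRSF6, 22 in SRSF7 and 20 in SRSF11, and TRA2B had neither form in this stretch. The 3′UTRs of SRSF1 and SRSF6 lie wholly inside another protein-coding gene of the annotation on the same strand, for which the tables hold no row, and that of SRSF2 overlaps genes on the opposite strand, MFSD11 among them. Pseudogenes of SRSF2, SRSF3 and SRSF6 have rows of their own in the tables, so reads may be split between them and the members. The genes span chr17:58000919-58007346 (SRSF1, minus strand) and chr17:76734115-76737333 (SRSF2, minus strand), chr6:36594353-36605600 (SRSF3, plus strand), chr1:29147743-29181900 (SRSF4, minus strand) and chr1:70205682-70253052 (SRSF11, plus strand), chr14:69726900-69772005 (SRSF5, plus strand), chr20:43457893-43466046 (SRSF6, plus strand), chr2:38743599-38751494 (SRSF7, minus strand), chr7:23504780-23532041 (TRA2A, minus strand) and chr3:185914558-185938103 (TRA2B, minus strand) (hg38).

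NVP-2 acts on transcription, and the bases before the gene start are shown for the 3 members with the lowest mean log2 change of T>C reads over both lines, SRSF3, SRSF6 and SRSF7, and for SRSF11, whose T>C level was higher in AsPC-1. The sequences are from RefSeq (GRCh38.p14, 8 of the 10 members matched an entry) and lie in the 250 bases before the RefSeq start, without the part inside the annotated gene. Capitals mark matches, on either strand, to the TATA box TATAAA, the GC box GGGCGG, the CCAAT box (CCAAT), the cyclic AMP response element TGACGTCA or the ETS core GGAAGT, none of which overlapped here.
SRSF3 promoter, chr6:36594112-36594352, plus strand: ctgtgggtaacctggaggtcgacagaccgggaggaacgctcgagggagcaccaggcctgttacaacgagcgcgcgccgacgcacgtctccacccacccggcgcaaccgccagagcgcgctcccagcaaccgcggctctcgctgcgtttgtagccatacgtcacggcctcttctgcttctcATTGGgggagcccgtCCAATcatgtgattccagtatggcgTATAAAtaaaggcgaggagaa
SRSF6 promoter, chr20:43457646-43457892, plus strand: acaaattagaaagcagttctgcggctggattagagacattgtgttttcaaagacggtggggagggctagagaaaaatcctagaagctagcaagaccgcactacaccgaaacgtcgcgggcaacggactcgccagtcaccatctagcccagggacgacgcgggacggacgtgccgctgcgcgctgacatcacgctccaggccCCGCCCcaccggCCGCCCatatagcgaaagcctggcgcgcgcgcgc
SRSF7 promoter, chr2:38751495-38751744, minus strand: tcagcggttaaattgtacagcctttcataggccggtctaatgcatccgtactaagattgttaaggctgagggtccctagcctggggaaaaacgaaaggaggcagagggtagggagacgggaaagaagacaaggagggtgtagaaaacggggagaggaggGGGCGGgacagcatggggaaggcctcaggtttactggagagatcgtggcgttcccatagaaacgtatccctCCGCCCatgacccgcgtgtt
SRSF11 promoter, chr1:70205446-70205681, plus strand: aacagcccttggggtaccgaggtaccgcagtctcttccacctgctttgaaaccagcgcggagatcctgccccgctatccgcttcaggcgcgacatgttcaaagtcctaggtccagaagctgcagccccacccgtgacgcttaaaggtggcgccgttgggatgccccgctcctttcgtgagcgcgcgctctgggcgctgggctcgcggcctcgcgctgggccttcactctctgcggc

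SRSF3 held 1 TATAAA and 2 CCAAT, SRSF6 and SRSF7 held 2 GGGCGG each, and SRSF11 held none of the 5 motifs in the windows shown. RefSeq has a second start for SRSF7 and for SRSF11 inside the annotated gene, not shown, whose windows held 1 TATAAA and 3 GGGCGG (SRSF7) and 1 TATAAA (SRSF11). Of 34943 promoter windows of 250 bases, 10.8% held TATAAA, 42.5% GGGCGG, 32.0% CCAAT, 1.63% TGACGTCA and 19.5% GGAAGT. These are matches of letters and not binding sites, and no motif was shared by the 3 members shown with lower T>C levels.

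The labelled share of a gene is the percentage of its reads that carry T>C conversions, a measure of how much of its RNA was made during labelling. It also depends on how many T bases the reads hold. The last 200 bases held 59 T in SRSF1, 65 in SRSF11, 73 in SRSF4 and 81 in SRSF7. The part of T content in the order of members was not tested. Over the 37 AsPC-1 libraries without NVP-2, SRSF4 had the highest share, 18.1 to 34.6% (median 25.7%), and SRSF1 the lowest median, 8.47 to 15.2% (median 11.2%). In the 16 T3M-4 libraries without NVP-2, SRSF4 was again the highest at 29.6 to 42.7% (median 38.9%), followed by TRA2B at 20.7 to 34.9% (median 28.2%), while SRSF1 was at 13.9 to 18.2% (median 16.7%). SRSF4 was the highest of the 10 in 33 of these AsPC-1 libraries, SRSF7 or TRA2B in the other 4, and SRSF4 was the highest in all 16 T3M-4 libraries.

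In the AsPC-1 DMSO 4 h libraries the group means of the shares were, in order, SRSF4 29.1 ± 3.39% (SD, n = 5), SRSF7 23.0 ± 2.13, TRA2B 22.7 ± 3.17, SRSF6 20.3 ± 2.01, TRA2A 19.9 ± 1.94, SRSF2 19.3 ± 2.08, SRSF3 16.9 ± 2.59, SRSF5 16.8 ± 1.87, SRSF1 13.2 ± 1.34 and SRSF11 12.5 ± 1.59. Neighbours in this order differed by less than the larger of their SDs, except SRSF4 and SRSF7 and except SRSF5 and SRSF1. All members lay above the whole-library share of 10.1%, but the median share of 11650 genes tested was 16.4%. SRSF1 and SRSF11 lay below that median, and SRSF3 and SRSF5 were close to it. The SRSF4 mean exceeded that of 79.8% of these genes, whereas SRSF11 exceeded 36.5%. In T3M-4 DMSO 4 h, SRSF4 had 38.6 ± 3.83% (SD, n = 4) and exceeded 83.2% of 12413 genes. SRSF11 was at 21.1 ± 1.93% there and exceeded 56.0%.

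**Figure D1:**
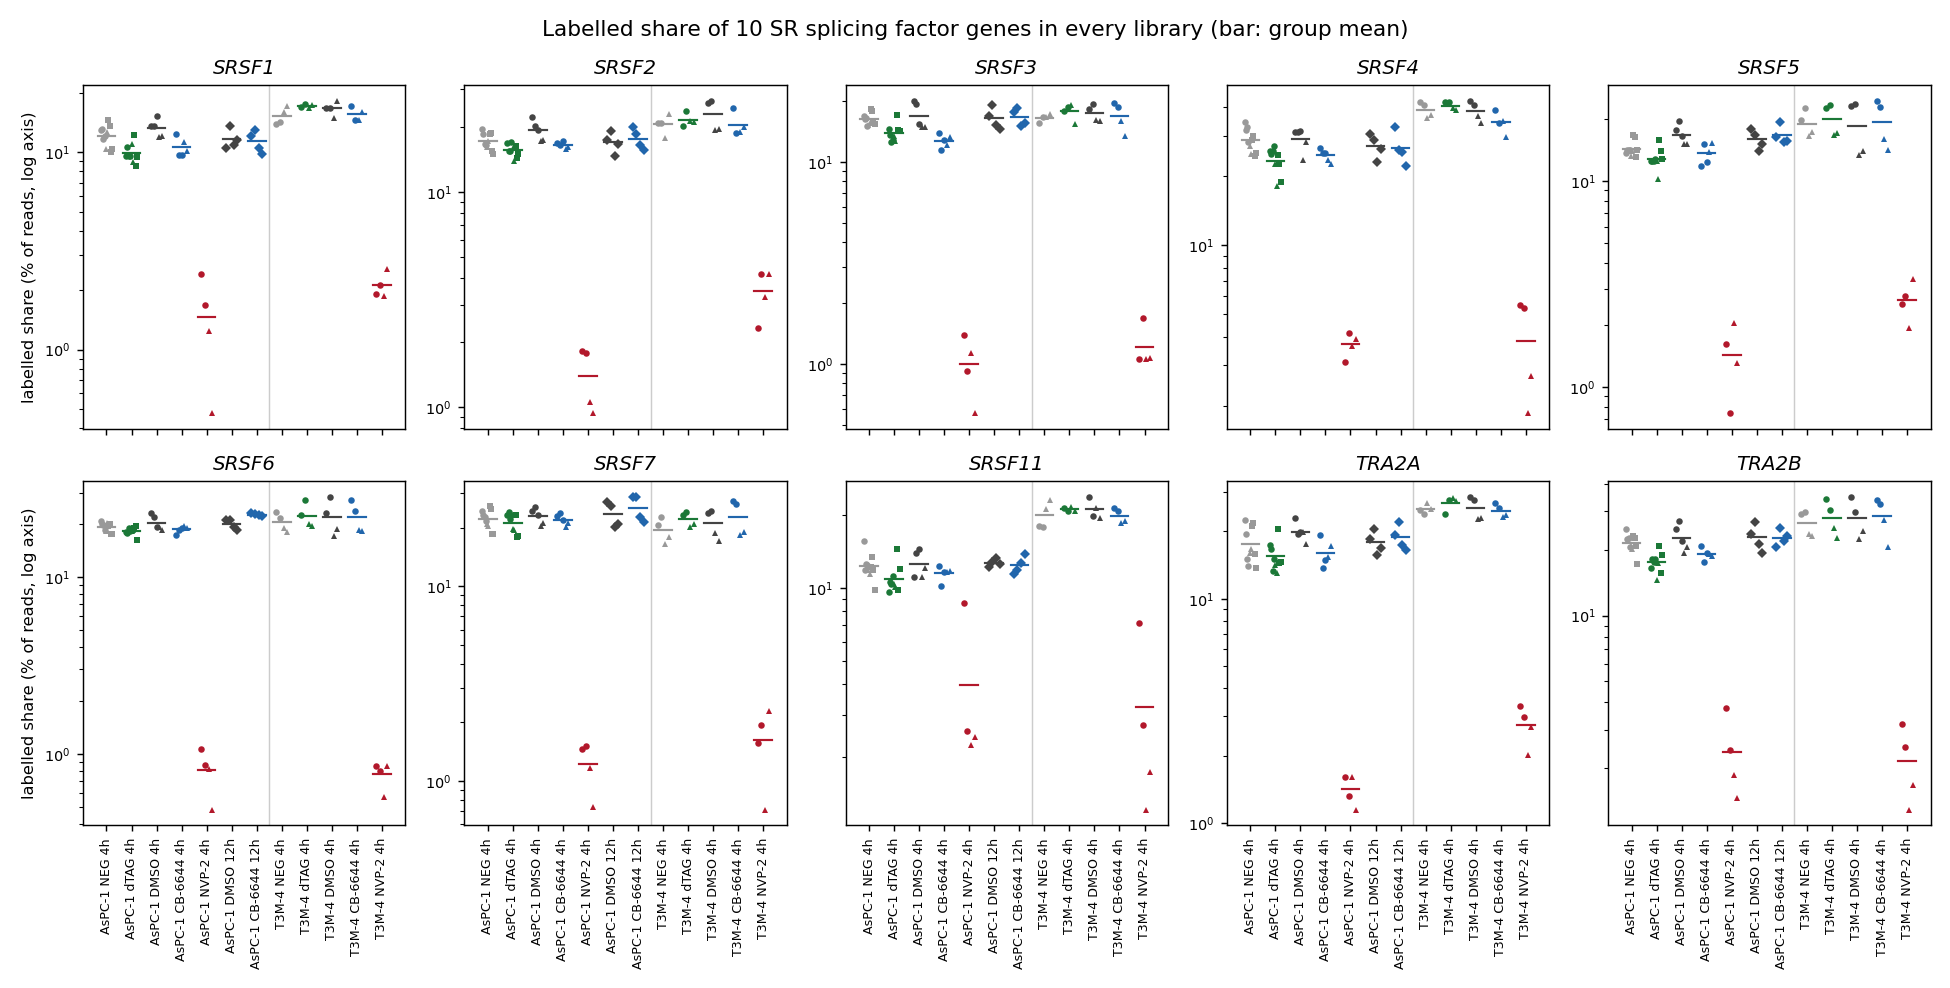
Labelled share of each member in every library (percent of its reads with T>C, log axis) by group, with a bar for the group mean and with circles, triangles and squares for experiments 1, 2 and 3 and diamonds for the 12 h libraries. The NVP-2 libraries lie below all others of their line for every member, and the closest approach is SRSF11 in AsPC-1, with NVP-2 library 1.1 at 8.67% and the lowest other library at 9.65%.

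NVP-2 lowered the labelled share of every member in both lines. Labelled shares after NVP-2 ranged from 0.809% (SRSF6) to 3.97% (SRSF11) as group means in AsPC-1 and from 0.768% (SRSF6) to 3.84% (SRSF4) in T3M-4. The groups did not overlap for any of the 10 members in either line, where 91.7% of all genes in AsPC-1 and 90.9% in T3M-4 had groups without overlap. By edgeR's quasi-likelihood test of T>C reads with all reads of the same gene as offset, 10 of 10 members were lower in AsPC-1, where 96.2% of all genes tested were called, and 10 of 10 in T3M-4, where 91.4% were. A lower labelled share was thus what nearly all genes showed. The whole-library share fell from 10.1 ± 0.624% (SD, n = 5) to 1.57 ± 0.239% (n = 4) in AsPC-1 (exact two-sided permutation p = 0.0159, the smallest possible). In T3M-4 it was 12.4 ± 1.56% with DMSO and 2.24 ± 0.417% with NVP-2 (n = 4 each, exact permutation p = 0.0286, the smallest possible).

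The size of the fall differed between members, and the part of these low shares that was background conversion was not measured. SRSF6 fell furthest: its labelled share in the 4 AsPC-1 NVP-2 libraries was 1.06, 0.865, 0.824 and 0.483%, against 23.0, 21.9, 19.1, 19.2 and 18.3% in the 5 DMSO libraries, and in T3M-4 it was 0.849, 0.801, 0.568 and 0.856% against 22.9, 28.4, 17.1 and 18.6%. Its log2 change was -4.65 (SE 0.25, edgeR adjusted p = 1.44e-08) in AsPC-1 and -4.82 (SE 0.29, edgeR adjusted p = 1.14e-06) in T3M-4, beyond the medians of all genes, -3.03 and -2.97. For SRSF7, its labelled share in the 4 AsPC-1 NVP-2 libraries was 1.46, 1.51, 1.16 and 0.738%, against 24.3, 25.6, 23.2, 20.5 and 21.2% in the 5 DMSO libraries, and in T3M-4 it was 1.58, 1.95, 0.711 and 2.28% against 23.9, 24.4, 18.8 and 17.2%. The log2 change was -4.24 (SE 0.24, edgeR adjusted p = 1.59e-08) and -3.69 (SE 0.36, edgeR adjusted p = 8.87e-06), again past the all-gene median in both lines. For SRSF3, its labelled share in the 4 AsPC-1 NVP-2 libraries was 1.39, 0.919, 1.14 and 0.569%, against 20.1, 19.4, 15.4, 14.8 and 14.9% in the 5 DMSO libraries, and in T3M-4 it was 1.05, 1.68, 1.05 and 1.06% against 18.2, 19.2, 16.2 and 15.9%. Its log2 changes were -4.08 and -3.84.

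The highest mean labelled share after NVP-2 was that of SRSF11 in AsPC-1 and that of SRSF4 in T3M-4. SRSF2 at 3.48 ± 0.879% (SD, n = 4) was above SRSF11 at 3.22 ± 2.72% in T3M-4. For SRSF11, its labelled share in the 4 AsPC-1 NVP-2 libraries was 8.67, 2.56, 2.24 and 2.42%, against 11.1, 13.9, 14.5, 11 and 12.1% in the 5 DMSO libraries, and in T3M-4 it was 7.18, 2.73, 1.22 and 1.75% against 23.7, 19.8, 21.4 and 19.5%. Library 1.1 was the highest NVP-2 library of each line for SRSF11, at 8.67% and 7.18%. The other 3 AsPC-1 NVP-2 libraries had lower shares of SRSF11 than any had of SRSF4. The log2 change of SRSF11 was -1.65 (SE 0.37, edgeR adjusted p = 9.09e-04) in AsPC-1, the smallest among the members, and -2.71 (SE 0.48, edgeR adjusted p = 3.59e-04) in T3M-4. For SRSF4, its labelled share in the 4 AsPC-1 NVP-2 libraries was 3.1, 4.16, 3.63 and 3.91%, against 31.1, 31.2, 31.5, 23.5 and 28.1% in the 5 DMSO libraries, and in T3M-4 it was 5.49, 5.34, 1.85 and 2.69% against 42.7, 40.8, 36.8 and 34.2%. The log2 change of SRSF4 was -2.97 (SE 0.20, edgeR adjusted p = 3.81e-08) and -3.33 (SE 0.39, edgeR adjusted p = 2.64e-05). In AsPC-1, 8 of 10 members fell past the all-gene median of the labelled share, with a member median of -3.67, and in T3M-4 7 of 10, with -3.27. When the offset was also shifted by each library's own labelled share, a change is read against the library. SRSF11 then turned to 0.94 in AsPC-1 (edgeR adjusted p = 0.0242), and SRSF6 remained lower at -1.99 and, in T3M-4, -2.33. For SRSF11, NVP-2 library 1.1 had 8.67% against a whole-library share of 1.91%. The other AsPC-1 NVP-2 libraries had 2.24 to 2.56% against 1.35 to 1.55%. This setting was not refitted without library 1.1.

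**Figure D2:**
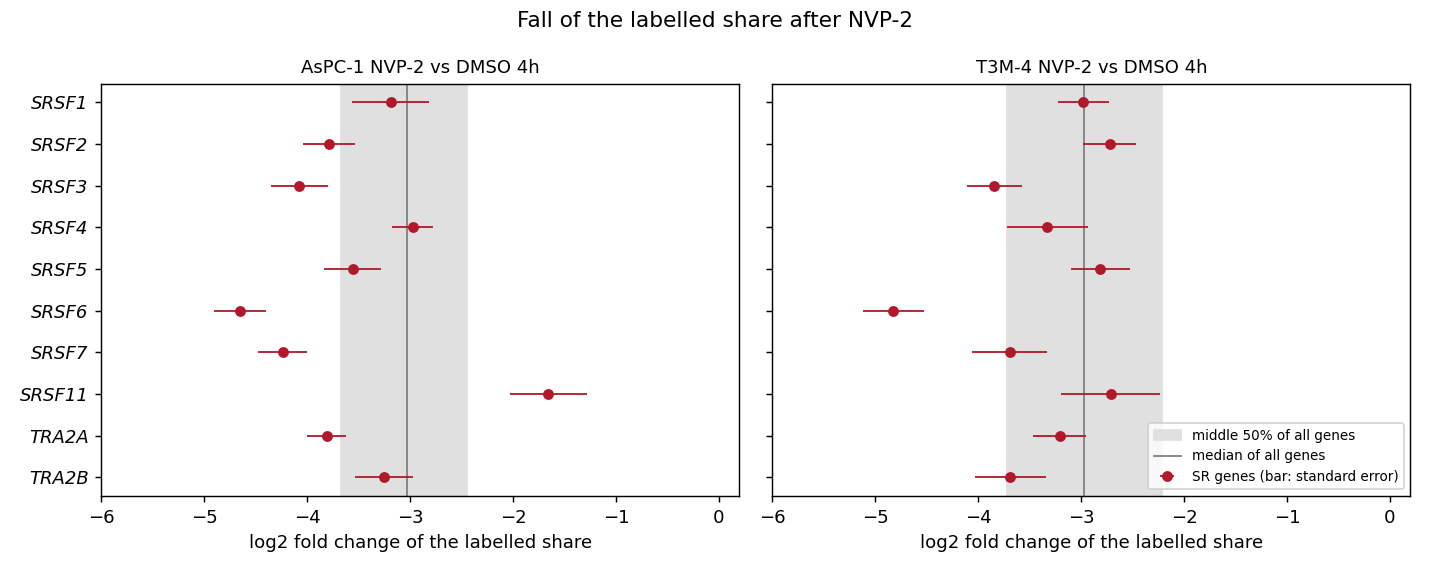
Log2 change of the labelled share after NVP-2 against DMSO for each member (points, with bars for the standard error) in AsPC-1 (left) and T3M-4 (right), with a grey line at the median of all genes tested and a grey band over their middle 50%. SRSF6 lies furthest left in both lines, and SRSF11 lies right of the band in AsPC-1 and inside it in T3M-4.

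As a level among T>C reads, most members also dropped after NVP-2. Only 1.57% of reads in AsPC-1 and 2.24% in T3M-4 carried T>C then. How many of them were background conversion and not new RNA was not measured. T>C levels are given as CPM of T>C reads, scaled by TMM over all libraries, and are thus relative to a T>C pool that was 6.39-fold smaller as a share of reads in AsPC-1 and 5.54-fold smaller in T3M-4. A higher value means a larger part of that pool and not more new RNA per cell. In AsPC-1, 8 of 10 members were called by edgeR and by DESeq2, 7 lower and SRSF11 higher (SRSF11 was lower when scaled by all reads), where 30.5% of all genes were called, 17.6% lower and 12.9% higher. In T3M-4, 4 of 10 were called by edgeR and by DESeq2, all lower, where 26.7% of all genes were called and 14.2% were lower. The median log2 change of the members was -0.86 in AsPC-1 and -0.47 in T3M-4, against -0.05 and -0.12 over all genes tested. SRSF3, SRSF6, SRSF7 and TRA2B were called lower in both lines.

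SRSF6 had 47.7, 77.4, 77.6 and 59.3 CPM of T>C reads in the AsPC-1 NVP-2 libraries and 216, 268, 161, 281 and 178 in DMSO, and 45.5, 47.0, 126 and 152 against 205, 247, 506 and 494 in T3M-4. Groups were apart for 8 of 10 members in AsPC-1, where 28.8% of all genes were apart, and for 5 of 10 in T3M-4, where 34.9% were. SRSF6 was among them in both lines. It was 3.09-fold lower in AsPC-1, a log2 change of -1.63 (SE 0.25, edgeR adjusted p = 7.70e-04), and 3.81-fold lower in T3M-4, -1.93 (SE 0.48, edgeR adjusted p = 0.0135). SRSF6 is a regulator of alternative exons, and its DMSO level in T3M-4 differed between the experiments. SRSF7 had 275, 225, 261 and 171 CPM of T>C reads in the AsPC-1 NVP-2 libraries and 828, 776, 1045, 803 and 934 in DMSO, and 228, 191, 135 and 429 against 635, 605, 471 and 469 in T3M-4. SRSF7, which also takes part in mRNA export, was 3.44-fold lower in AsPC-1, a log2 change of -1.78 (SE 0.22, edgeR adjusted p = 1.75e-04), and 2.13-fold lower in T3M-4, -1.09 (SE 0.34, edgeR adjusted p = 0.0375). In T3M-4 the highest NVP-2 library, at 429 CPM, was near the lowest DMSO library at 469, and the call of SRSF7 was kept in 1 of 8 fits that left out 1 library, with log2 changes from -1.51 to -0.93. Only without NVP-2 library 2.2 was it kept.

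SRSF3 had 117, 113, 150.4 and 85.4 CPM of T>C reads in the AsPC-1 NVP-2 libraries and 239, 274, 249.9, 296 and 273 in DMSO, and 126, 103, 211 and 185 against 314, 258, 366 and 358 in T3M-4. SRSF3, the smallest of the family and a factor in export and polyadenylation, was 2.09-fold lower in AsPC-1, a log2 change of -1.06 (SE 0.21, edgeR adjusted p = 0.00294), and 2.00-fold lower in T3M-4, -0.997 (SE 0.29, edgeR adjusted p = 0.0272). In T3M-4 its call was lost without DMSO library 1.1, 2.1 or 2.2 or NVP-2 library 1.2, with log2 changes from -1.22 to -0.86. TRA2B had 119.9, 78.3, 96.7 and 68.0 CPM of T>C reads in the AsPC-1 NVP-2 libraries and 177, 171, 220.2, 149 and 164 in DMSO, and 162, 84.8, 88.8 and 111 against 337, 262, 212 and 242 in T3M-4. TRA2B, the SR-like partner that binds GAA-rich exons, was 1.77-fold lower in AsPC-1, a log2 change of -0.82 (SE 0.23, edgeR adjusted p = 0.0195), and 2.24-fold lower in T3M-4, -1.17 (SE 0.30, edgeR adjusted p = 0.0149). Its groups did not overlap in either line, though the call was lost without DMSO library 1.3 in AsPC-1 (log2 change -0.72) and without DMSO library 1.1 in T3M-4 (-1.01).

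SRSF2, SRSF5 and TRA2A were called lower in AsPC-1 and not in T3M-4. SRSF2 had 229.7, 184, 174 and 191 CPM of T>C reads in the AsPC-1 NVP-2 libraries and 416, 329, 378, 347 and 308 in DMSO, and 361, 490.2, 876 and 939 against 618, 626, 553 and 529.8 in T3M-4. The log2 change of SRSF2 was -0.74 (SE 0.20, edgeR adjusted p = 0.0145) in AsPC-1 and 0.25 (SE 0.31, edgeR adjusted p = 0.590) in T3M-4, where the T3M-4 NVP-2 libraries of experiment 2 lay above every DMSO library and those of experiment 1 below. TRA2A had 87.9, 172, 150.4 and 105 CPM of T>C reads in the AsPC-1 NVP-2 libraries and 197, 272, 252, 360.5 and 304 in DMSO, and 238, 189, 174 and 218 against 316, 271, 241 and 249 in T3M-4. The groups of TRA2A did not overlap in either line, and TRA2A, a close relative of TRA2B, changed by -0.98 (SE 0.25, edgeR adjusted p = 0.0118) in AsPC-1 and -0.33 (SE 0.24, edgeR adjusted p = 0.336) in T3M-4. SRSF5 had 288, 164, 441 and 188 CPM of T>C reads in the AsPC-1 NVP-2 libraries and 482, 539, 631, 525.5 and 596 in DMSO, and 285, 373, 730.0 and 1010.5 against 562, 678, 733 and 868 in T3M-4. SRSF5 changed by -0.90 (SE 0.29, edgeR adjusted p = 0.0325) in AsPC-1, a call that was kept in 3 of 9 fits without 1 library (those without DMSO 1.1, NVP-2 1.1 or NVP-2 2.1), with log2 changes from -1.25 to -0.73, and by -0.20 (SE 0.38, edgeR adjusted p = 0.741) in T3M-4.

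SRSF1 and SRSF4 were not called in either line. SRSF1, the founding member of the family, had a log2 change of -0.53 (SE 0.31, edgeR adjusted p = 0.207) in AsPC-1 and -0.08 (SE 0.27, edgeR adjusted p = 0.850) in T3M-4, and SRSF4 had -0.25 (SE 0.22, edgeR adjusted p = 0.425) and -0.62 (SE 0.34, edgeR adjusted p = 0.207). Their T>C reads after NVP-2 numbered 57 to 403 a library for SRSF1 and 106 to 378 for SRSF4, against 102 to 333 for SRSF6 and 117 to 545 for TRA2B, which were called in both lines. Without NVP-2 library 1.1, SRSF4 was called lower in T3M-4 at -0.99.

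SRSF11 was the one member called higher, in AsPC-1. SRSF11 had 5527, 2001, 1047 and 1453 CPM of T>C reads in the AsPC-1 NVP-2 libraries and 776, 782, 899, 654 and 758 in DMSO, and 4324, 894, 429 and 566 against 1866, 1646, 1023 and 1126 in T3M-4. Every AsPC-1 NVP-2 library exceeded every DMSO library, by 3.58-fold in the fit, a log2 change of 1.84 (SE 0.42, edgeR adjusted p = 0.00637), and without NVP-2 library 1.1, the highest, it was 1.05 (edgeR adjusted p = 0.00690). Scaled by the total of all reads in place of the T>C pool, the same reads gave -1.32, lower than DMSO (edgeR adjusted p = 0.0161), so the direction for SRSF11 holds only within the T>C pool. In T3M-4 the change was 0.23 (SE 0.65, edgeR adjusted p = 0.831), and library 1.1 decided its sign: without it SRSF11 was called lower at -1.13 (edgeR adjusted p = 0.0361).

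**Figure D3:**
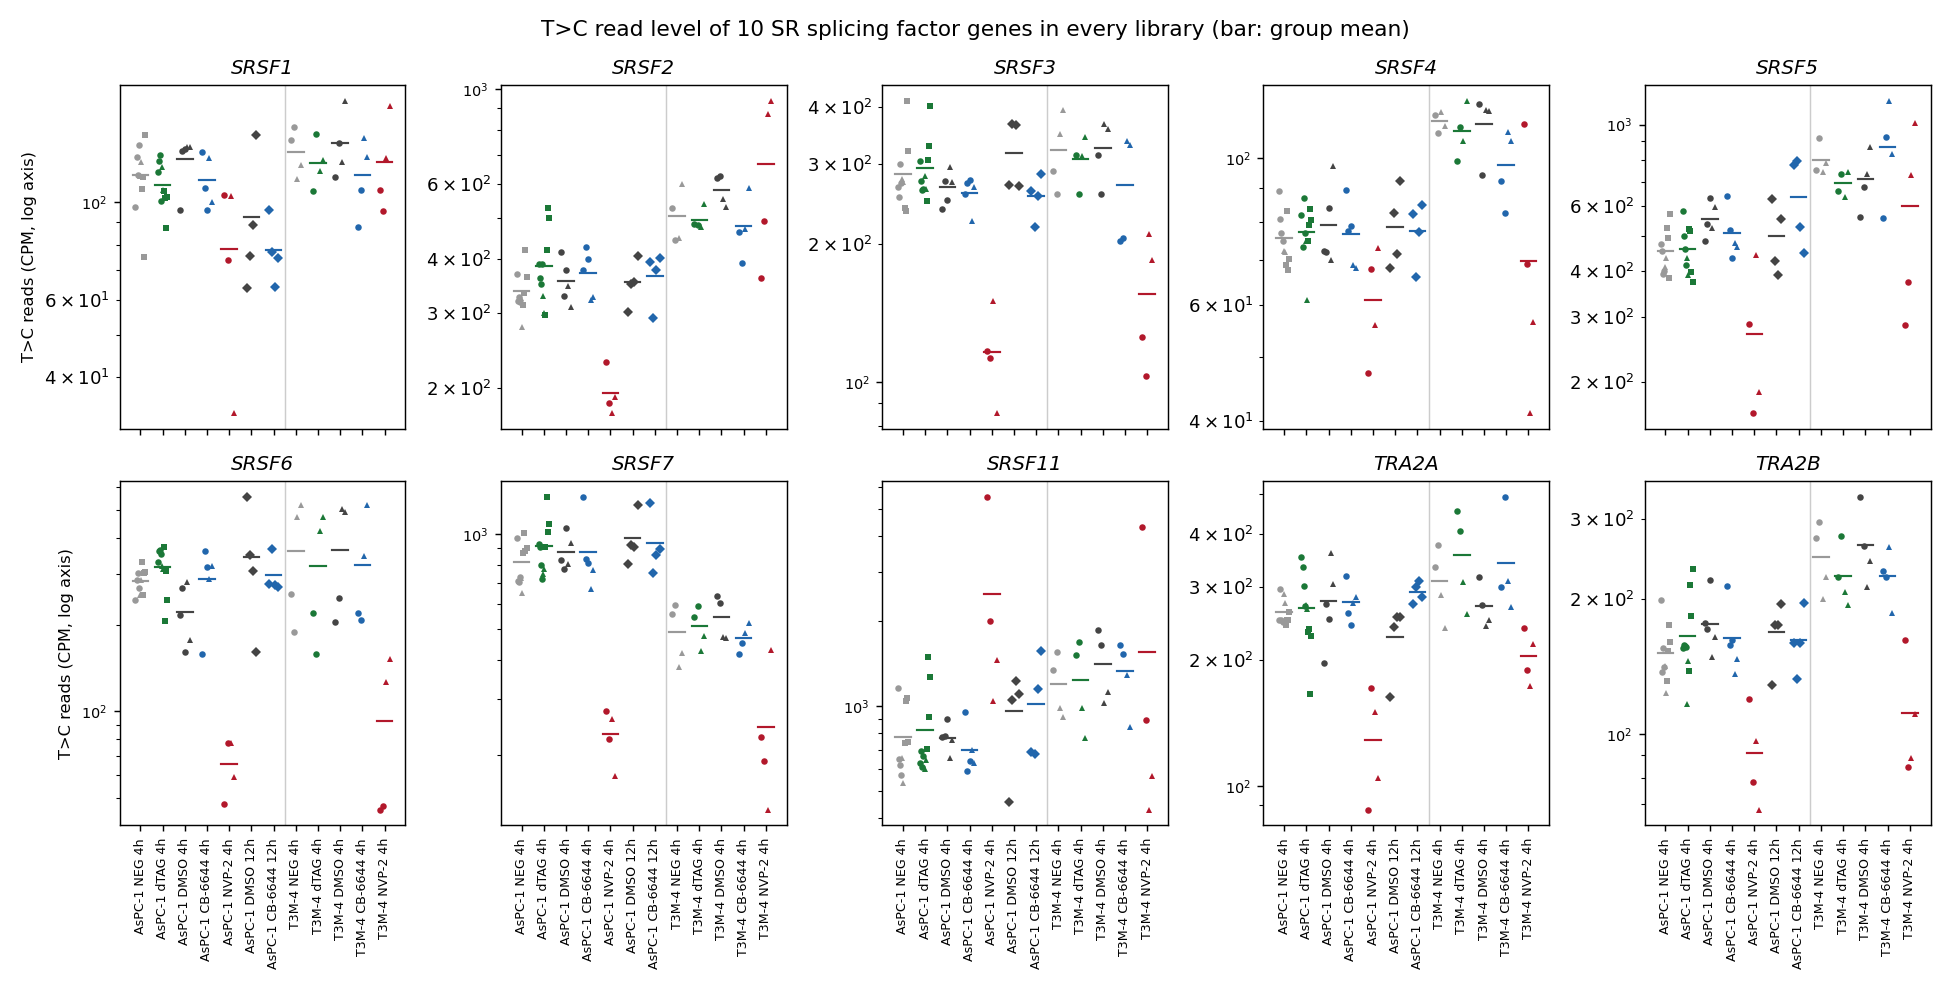
T>C reads of each member in every library (CPM, log axis) by group, with a bar for the group mean and with circles, triangles and squares for experiments 1, 2 and 3 and diamonds for the 12 h libraries. After NVP-2 SRSF3, SRSF6, SRSF7, TRA2A and TRA2B lie below the DMSO 4 h libraries in both lines, and SRSF11 lies above them in AsPC-1 within the T>C pool, though not when scaled by all reads.

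Against the batch 2 controls, which were handled for another time or with another agent, the AsPC-1 values of the members kept their signs. With the DMSO 12 h libraries as controls, 5 of 10 members were called: SRSF7 at -1.87, SRSF6 at -2.23, SRSF3 at -1.27, SRSF2 at -0.68 and SRSF11 at 1.58 on the log2 scale. SRSF5, TRA2A and TRA2B lost their calls there, with -0.71, -0.65 and -0.71. With the NEG libraries of experiment 3 as controls, SRSF5 and TRA2B lost theirs, at -0.66 and -0.57, and SRSF7 was at -1.78 and SRSF11 at 1.67. In T3M-4 each experiment, which is also a batch, held 2 libraries of each group. SRSF6 was called lower in both, at -2.17 and -1.80, as was SRSF3 at -1.20 and -0.82, while SRSF7 was called in experiment 1 alone (-1.44 and -0.69) and TRA2B in experiment 2 alone (-1.15 and -1.14). SRSF2 was called higher in experiment 2 (0.79) with -0.43 in experiment 1, and SRSF11 was called lower in experiment 2 (-1.06) with 0.70 in experiment 1.

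None of the 10 members had an NVP-2 effect on T>C reads that differed between the lines by edgeR's interaction test, where 0.851% of all genes were called, or by DESeq2, and 1 had an unadjusted p under 0.05. That was SRSF2, whose effect in T3M-4 minus that in AsPC-1 was 0.96 (SE 0.36, edgeR adjusted p = 0.214). Of the 10 members SRSF11 had the largest difference, -1.63 (SE 0.81, edgeR adjusted p = 0.393). Among the other splicing genes described next, edgeR called this difference for SRSF8, at -4.07 (SE 0.63, adjusted p = 0.00271), and HNRNPH3, at 1.70 (SE 0.36, adjusted p = 0.0280).

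CPM of all reads is relative to the reads of a library, so a fall per cell shared by most genes would not show in it. In all reads after NVP-2, edgeR called 11.8% of all genes in AsPC-1 and 5.16% in T3M-4. Of the members it called 0 of 10 in each line, and DESeq2 called 0. At an unadjusted p under 0.05 there were 3 in AsPC-1 and 1 in T3M-4. The log2 changes lay between -0.53 and 0.45 in AsPC-1 and between -0.46 and -0.002 in T3M-4, with SEs of 0.13 to 0.42. TRA2B had 56.6, 43.3, 70.5 and 56.7 CPM of all reads in AsPC-1 NVP-2 libraries against 78.1, 70.9, 112, 71.9 and 76.3 in DMSO, at a log2 change of -0.53 (SE 0.20, edgeR adjusted p = 0.117). Its groups were apart, as for 15.1% of all genes. SRSF7 was also apart, 199 to 337 against 339 to 503 CPM of all reads, at -0.51 (SE 0.19, edgeR adjusted p = 0.111).

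Genes of the same machinery were taken as 4 lists, and the values in parentheses are log2 changes of T>C reads after NVP-2 for the genes that edgeR called, within the T>C pool. Over all genes tested, edgeR called 17.6% lower and 12.9% higher in AsPC-1, and 14.2% lower and 12.4% higher in T3M-4. Of 13 other SR and SR-like genes tested in each line, 6 were lower in AsPC-1 (PNN -1.80, RBM39 -1.41, SRSF10 -1.33, SRRM1 -1.14, SON -0.84 and SREK1 -0.70) and 2 higher (SRSF8 1.88 and SRSF9 1.05), with a list median of -0.70. In T3M-4 10 of them were lower (PNN -2.16, SRSF8 -2.15, SRRM1 -1.96, SREK1 -1.92, RBM39 -1.85, SRRM2 -1.58, RNPS1 -1.53, SON -1.33, PPIG -1.17 and SRSF10 -1.05) and 1 higher (SRSF9 1.25), with a median of -1.53. PNN and RBM39, SR-related proteins of nuclear speckles, were among the lower genes in both lines. The hnRNP proteins often oppose SR proteins at exons. Of 23 hnRNP genes, 7 were lower in AsPC-1 (HNRNPH3 -1.72, HNRNPH1 -1.59, HNRNPDL -1.40, HNRNPF -1.08, HNRNPAB -0.97, HNRNPR -0.86 and HNRNPA2B1 -0.65) and 1 higher (HNRNPD 0.81), with a median of -0.34. In T3M-4 4 were lower (HNRNPAB -1.54, HNRNPDL -1.53, HNRNPR -1.21 and HNRNPL -0.91) and 2 higher (HNRNPD 1.95 and HNRNPK 1.16), with a median of -0.01.

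The shares of all genes called, for the counts that follow, were 17.6% lower and 12.9% higher in AsPC-1, and 14.2% and 12.4% in T3M-4. Of 34 core spliceosome genes, 4 were lower in AsPC-1 (PRPF4 -1.71, SF3B5 -1.03, SNRPG -0.90 and SNRPD1 -0.61) and 4 higher (SNRPD2 1.83, DDX23 1.21, SF3A3 0.91 and PRPF19 0.56), with a median of -0.003. In T3M-4 2 were lower (SF1 -1.35 and PRPF4 -0.89) and 7 higher (U2AF2 2.25, SNRPD2 2.07, PRPF19 2.05, PRPF3 1.84, SF3A3 1.61, SNRPE 0.96 and SF3B3 0.85), with a median of 0.11. Of 7 genes for SR kinases and nuclear import, 3 were lower in AsPC-1 (CLK1 -3.78, CLK4 -1.03 and DYRK1A -0.85) and 3 higher (TNPO3 1.41, SRPK1 1.25 and SRPK2 0.86), and in T3M-4 1 was lower (CLK1 -3.87) and 2 higher (TNPO3 2.21 and SRPK1 1.4). CLK1, a kinase that phosphorylates SR proteins in the nucleus, was the lowest of these in both lines. Unlike the 10 members it was also called in all reads. Its changes there were -3.44 (SE 0.30, edgeR adjusted p = 9.16e-05) in AsPC-1 and -3.12 (SE 0.27, edgeR adjusted p = 6.06e-04) in T3M-4. Other list genes were called in all reads too, where edgeR called 11.8% of all genes in AsPC-1 and 5.16% in T3M-4. In AsPC-1 these were CLK4, DYRK1A and PRPF3, lower, and HNRNPA1, PCBP2, SNRPD2 and SNRPD3, higher. In T3M-4 DYRK1A was lower.

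KLF5 degradation was compared with the inactive analogue to ask which transcripts change soon after loss of the factor. None of the 10 members was called in T>C reads by edgeR in AsPC-1, where 2.4% of all genes were called, or in T3M-4, where 0.834% were, and 0 had an unadjusted p under 0.05 in either line. DESeq2 also called 0. Log2 changes ran from -0.05 (SRSF1) to 0.22 (SRSF2) in AsPC-1 with SEs of 0.08 to 0.19, and from -0.22 (SRSF5) to 0.20 (TRA2A) in T3M-4 with SEs of 0.15 to 0.40. SRSF2 had from 295 to 527 with a median of 375 CPM of T>C reads in the 10 dTAG libraries of AsPC-1 and from 278 to 419 with a median of 326 in NEG, and the groups overlapped. In T3M-4 the groups of SRSF5 alone did not overlap (1 of 10, where 5.71% of all genes did not), with 659, 733, 635 and 743 CPM of T>C reads after dTAG against 754, 922, 745 and 787 in NEG. Of the 4 lists of other splicing genes, HNRNPA1 in AsPC-1 was called higher by edgeR at 0.34 (SE 0.09, adjusted p = 0.0356) and no other gene was called in T>C reads. In all reads 0 members were called by edgeR or DESeq2 (background 0.797% in AsPC-1 and 0.0191% in T3M-4), with 1 and 0 at an unadjusted p under 0.05. No interaction with the line was called by edgeR or DESeq2 (0 of 10, background 0.0426%, 0 at an unadjusted p under 0.05).

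In AsPC-1 the labelled shares of SRSF1, SRSF3, SRSF4 and TRA2B were called lower after dTAG, 4 of 10 members where 40.2% of all genes were called. The all-reads values of 1 dTAG library (3.1) were left out, so 9 remained. TRA2B had labelled shares from 14.5 to 20.9 with a median of 17.5% after dTAG (n = 9) and from 17.2 to 24.8 with a median of 21.7% in NEG (n = 10), a log2 change of -0.30 (SE 0.07, edgeR adjusted p = 0.00465). SRSF4 had labelled shares from 18.1 to 27.0 with a median of 24.6% after dTAG (n = 9) and from 24.6 to 34.6 with a median of 28.5% in NEG (n = 10), a change of -0.30 (SE 0.09, edgeR adjusted p = 0.0110). SRSF1 and SRSF3 had log2 changes of -0.29 and -0.23. The groups overlapped for all 4, and the other members lay between -0.19 (TRA2A) and -0.06 (SRSF7), against an all-gene median of -0.26. The whole-library share was also lower, 8.0 ± 0.337% against 9.30 ± 0.688% (exact permutation p = 3.46e-04), and with the offset shifted by it 0 of 10 members were called, with TRA2B at -0.08. Libraries of the same replicate number correlated in their deviations at 0.25 to 0.59, but only 5 of 10 correlated best with their own number. With the replicate number as a block SRSF2 and SRSF5 were called lower as well, at -0.13 and -0.14 (edgeR adjusted p = 0.0472 and 0.0458). Without dTAG library 3.2, 7 members were called, SRSF5, SRSF11 and TRA2A being added. In T3M-4, 0 of 10 labelled shares were called by edgeR (background 0.256%, 0 at an unadjusted p under 0.05), with all 10 log2 changes between 0.06 and 0.18 and an all-gene median of 0.06.

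**Figure D4:**
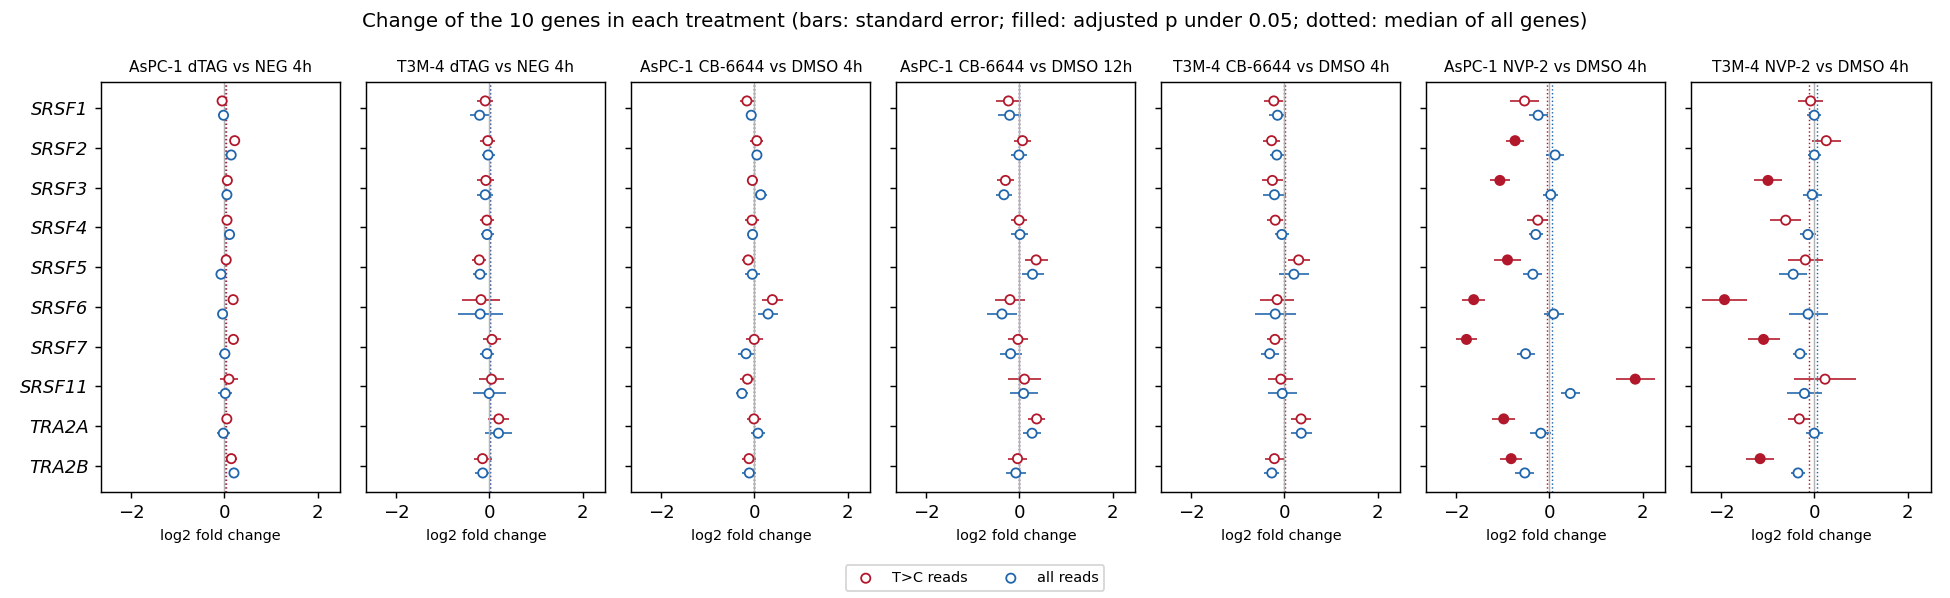
Log2 fold change of T>C reads (red) and all reads (blue) of each member in the 7 treatment comparisons, with bars for the standard error, filled points where the edgeR adjusted p was under 0.05 and dotted lines at the median of all genes. Filled points occur only in T>C reads after NVP-2, 8 in AsPC-1 and 4 in T3M-4.

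CB-6644 was tested for the effect of blocking RUVBL1/2, and no member was called. In T>C reads edgeR called 0 of 10 members in AsPC-1 at 4 h (background 0%), at 12 h (background 0%) and in T3M-4 (background 0%), with 0 at an unadjusted p under 0.05 in each, and DESeq2 called 0 members. The members' log2 changes ran from -0.16 to 0.38 in AsPC-1 at 4 h, from -0.30 to 0.37 at 12 h and from -0.28 to 0.36 in T3M-4, with SEs of 0.11 to 0.37. The highest at 4 h in AsPC-1 was SRSF6, with 158, 361, 317, 288 and 319 CPM of T>C reads after CB-6644 and 216, 268, 161, 281 and 178 in DMSO, and the groups overlapped. TRA2A at 12 h was the only member whose groups did not overlap in T>C CPM in a CB-6644 comparison, at 272, 299.6, 309 and 284 against 163, 240.3, 254 and 253, with a log2 change of 0.37 (SE 0.18, edgeR adjusted p = 0.998). Of all genes, 0.721% had no overlap in AsPC-1 at 4 h, 3.19% at 12 h and 3.21% in T3M-4. No gene of the 4 lists of other splicing genes was called in T>C reads by edgeR in these 3 comparisons. In all reads 0 of 10 were called by edgeR and DESeq2 in each comparison (background 0%, 0% and 0.0127%), with 0 at an unadjusted p under 0.05. The effect on T>C reads did not differ by an edgeR or DESeq2 call between the lines (background 0%) or between 12 h and 4 h in AsPC-1 (background 0%), for 0 of 10 members each, and 0 had an unadjusted p under 0.05.

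Labelled shares were lower in AsPC-1 after 4 h of CB-6644 in all 10 members without a call by edgeR (0 of 10, background 3.31%), and 7 had an unadjusted p under 0.05. SRSF3 had 13.9, 11.4, 12.9, 12.1 and 13.3% against 20.1, 19.4, 15.4, 14.8 and 14.9% in DMSO, with no overlap (1 of 10 members, where 7.59% of all genes had none), and a log2 change of -0.41 (SE 0.11, edgeR adjusted p = 0.0532). Without DMSO library 2.1 or 2.2 it passed the threshold. The whole-library share was 8.51 ± 0.254% against 10.1 ± 0.624% (n = 5 each, exact permutation p = 0.00794, the smallest possible), and the all-gene median of the log2 change was -0.22, near the members' median of -0.24. At 12 h and in T3M-4, edgeR called 0 of 10 labelled shares (background 0% and 0%), with 0 at an unadjusted p under 0.05. The groups of SRSF6 alone did not overlap at 12 h (1 of 10, where 3.18% of all genes did not).

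Between the lines, T>C levels of SRSF2, SRSF4, SRSF11 and TRA2B were higher in T3M-4 than in AsPC-1 and that of SRSF7 lower, in DMSO at 4 h (5 of 10 members, where 48.4% of all genes were called). SRSF11 had 1866, 1646, 1023 and 1126 CPM of T>C reads in T3M-4 and 776, 782, 899, 654 and 758 in AsPC-1, with every T3M-4 library above every AsPC-1 library and a log2 difference of 0.91 (SE 0.20, edgeR adjusted p = 0.00325). SRSF2 had 618, 626, 553 and 529.8 against 416, 329, 378, 347 and 308 CPM, 0.74 (SE 0.15, edgeR adjusted p = 0.00172), again apart (3 of 10 members, where 41.8% of all genes were). SRSF7 had 635, 605, 471 and 469 against 828, 776, 1045, 803 and 934 CPM and was 1.57-fold lower in T3M-4, -0.65 (SE 0.17, edgeR adjusted p = 0.00703). SRSF4 and TRA2B differed by 0.54 and 0.61. The call of SRSF4 was lost without AsPC-1 library 1.2 or T3M-4 library 1.1 or 2.1, and that of TRA2B without T3M-4 library 1.1 (0.43). Each subtype is represented by 1 line here.

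In all reads SRSF2, SRSF3, SRSF6 and TRA2B were higher in T3M-4 (4 of 10, where 55.7% of all genes were called), at log2 differences of 0.66, 0.42, 0.87 and 0.47. Only SRSF2 was apart in all libraries (1 of 10, where 48% of all genes were), with 278 to 337 against 168 to 217 CPM of all reads. SRSF6 had 127, 114, 311 and 275 CPM of all reads in T3M-4 and 92.2 to 137 in AsPC-1. The T3M-4 libraries of experiment 2 lay above the AsPC-1 range and those of experiment 1 inside it. The calls of SRSF3 and TRA2B were kept in 2 of 9 fits without 1 library, that of SRSF6 in 4 of 9 and that of SRSF2 in 9 of 9. The labelled share was higher in T3M-4 for SRSF4 and SRSF11 (2 of 10, where 14.6% of all genes were called). Their groups did not overlap (2 of 10, where 18.8% of all genes did not). SRSF11 had 23.7, 19.8, 21.4 and 19.5% in T3M-4 and 11.1, 13.9, 14.5, 11 and 12.1% in AsPC-1, a log2 difference of 0.76 (SE 0.11, edgeR adjusted p = 0.00234) that was called in all 9 fits without 1 library. SRSF4 differed by 0.41 (SE 0.13, edgeR adjusted p = 0.0488), a call kept only without T3M-4 library 2.2, and by 0.11 with the library share in the offset.

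The T3M-4 experiments differed in several members before any treatment was compared. The DMSO and NEG libraries of experiment 2 were set against those of experiment 1 (4 libraries each, with treatment as covariate), a comparison added after the values had been seen, and the experiment is also the batch, so the 2 cannot be told apart. In all reads, 6 of 10 members were called by edgeR, where 39% of all genes were, in T>C reads 5, where 22.1% were, and in labelled share 4, where 16% were. SRSF6 had 81.8 to 140.0 CPM of all reads in the 8 libraries of experiment 1 without NVP-2 and 212 to 319 in the 8 of experiment 2, with no overlap. In the controls it was 2.54-fold higher in experiment 2, a log2 difference of 1.34 (SE 0.10, edgeR adjusted p = 2.11e-05), and its T>C reads differed by 1.16 (SE 0.12, edgeR adjusted p = 4.30e-04). SRSF11 pointed the other way, with 891 to 1135 CPM of all reads in experiment 1 and 419 to 782 in experiment 2, -0.98 (SE 0.11, edgeR adjusted p = 9.91e-05) in the controls, and -0.66 (SE 0.10, edgeR adjusted p = 0.00185) in T>C reads. SRSF5 had labelled shares of 19.7 to 24.5% in experiment 1 and 13.3 to 17.2% in experiment 2, and in the controls the log2 difference was -0.55 (SE 0.10, edgeR adjusted p = 0.0100), against an all-gene median of -0.24. The differences of SRSF6 and SRSF11 in T>C reads and in all reads were called in all 8 fits without 1 library, while that of SRSF3 and that of TRA2B in T>C reads were called in 1 of 8 each. The T3M-4 treatment comparisons hold both experiments in every group. Their main fits had no term for the experiment, so its differences add to the spread, which can hide small treatment effects.

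**Figure D5:**
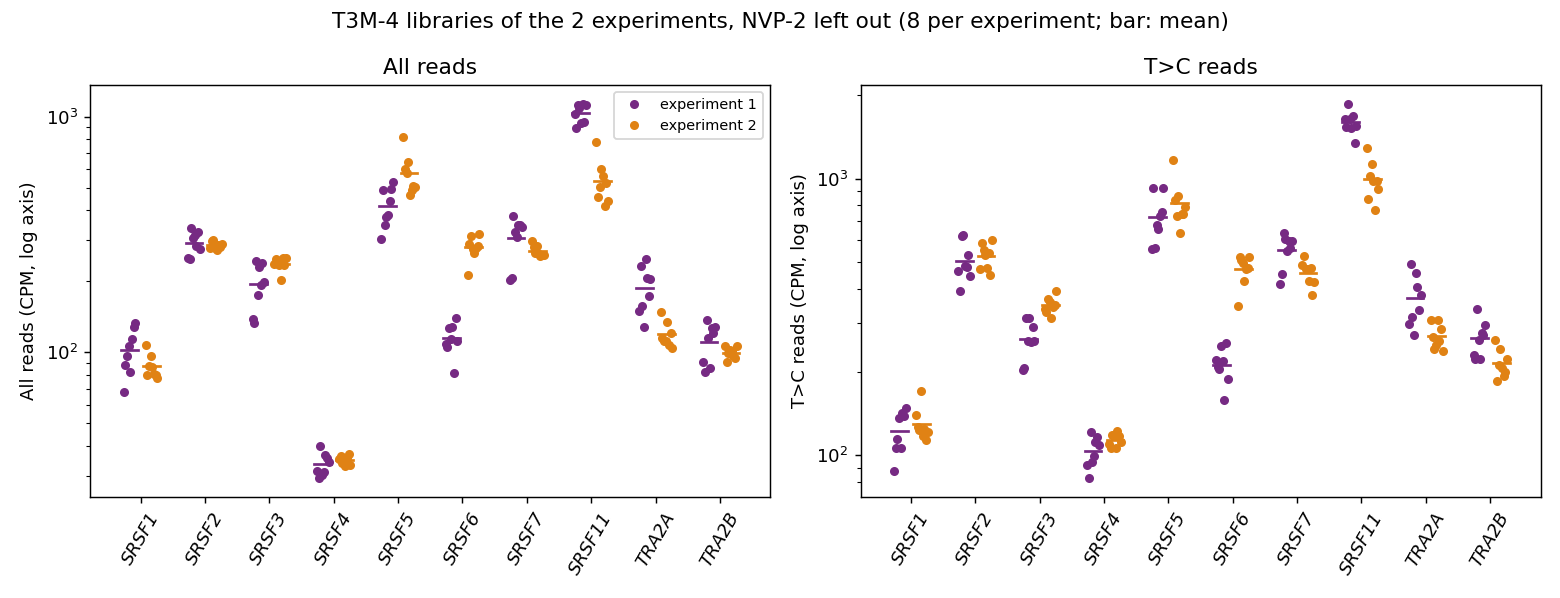
All reads (left) and T>C reads (right) of each member in the T3M-4 libraries without NVP-2 (CPM, log axis), 8 points for experiment 1 and 8 for experiment 2 with a bar for each mean. SRSF6 is higher and SRSF11 lower in experiment 2 in both panels, with no overlap.

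The 12 h libraries of AsPC-1 also varied in SRSF6, with 556, 348, 306 and 160.3 CPM of T>C reads in DMSO and 277, 366, 274 and 269 after CB-6644. The spread within DMSO exceeded the difference between the groups, -0.20 (SE 0.33, edgeR adjusted p = 0.998).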

How the data were processed

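SLAM-seq libraries were 3′ end libraries of RNA labelled with 4sU for 2 h. The authors mapped reads with slamdunk at default settings to hg38, over 3′UTR exons of GENCODE v44, and deposited counts per gene, raw counts of T>C reads and of all reads, for each library. The slamdunk version is not given in the sources used here. Counting T>C reads needs at least 1 conversion in a read, so short or T-poor reads are missed and sequencing errors can be counted. No spike-in was used, so T>C levels are relative to each library's T>C pool and levels in all reads to its total of reads. In 1 all-reads column (AsPC-1 dTAG library 3.1) every value equalled the T>C value of AsPC-1 DMSO 12 h library 2; it was left out and no value was imputed.

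Counts were tested on the whole table with edgeR 4.0.16 (R 4.3.3), quasi-likelihood, TMM factors within each comparison, filterByExpr, Benjamini-Hochberg adjustment and a threshold of 0.05. SEs were derived from the log2 change and its F statistic. The labelled share was tested as T>C counts with the log of all reads of the same gene and library as offset. Printed CPM used TMM over all libraries of the series, so folds from printed levels can differ from fitted ones. Between the lines, interaction terms were fitted. Library shares were compared by exact two-sided permutation tests. DESeq2 1.42.0, other scaling, blocks, batches, other controls and leaving out single libraries were the alternatives. The scripts were tested on simulated data. The main tests used no pairing. Replicate numbers were taken to pair the libraries where the correlation of deviations was over 0.1 in every pair. These were AsPC-1 dTAG (0.25 to 0.59, 5 of 10 pairs best with their own number) and T3M-4 dTAG (0.29 to 0.56, 3 of 4). The others were AsPC-1 CB-6644 at 12 h (0.25 to 0.71, 2 of 4) and T3M-4 CB-6644 (0.22 to 0.49, 1 of 4). Since many libraries correlated more with another number, passing this limit does not show that the numbers mark pairs. The 10 members, the 4 lists of other splicing genes and the tests were chosen with earlier results of these data known. All members were counted in every comparison. The genes of the 4 lists were named where called in T>C reads in a treatment comparison or interaction, and in all reads after NVP-2. Their calls in labelled share and between the lines were not named.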

Additional observations from a re-analysis of the deposited data

Results flagged for a closer look

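Single libraries stood apart from the rest of their group in 23 of 360 groups of values (6.39%), judged by the gap to the nearest library against the range of the group, where chance gives about 1 in 20. The causes were not tested.

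SRSF11 stood apart in NVP-2 library 1.1 of both lines. Its labelled share was 8.67% in that AsPC-1 library against 2.24 to 2.56% in the others, and its T>C CPM in that T3M-4 library was 4324 against 429 to 894. The AsPC-1 T>C CPM of the same library, 5527 against 1047 to 2001, and the T3M-4 labelled share, 7.18% against 1.22 to 2.73%, did not pass the same limit.

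In T>C CPM the other cases were SRSF1 in AsPC-1 DMSO 4 h library 1.1 (95.7 against 130.4 to 133 in the others), SRSF2 in T3M-4 dTAG 4 h library 2.2 (538 against 475 to 484 in the others), SRSF3 in AsPC-1 NEG 4 h library 3.3 (412 against 237 to 319 in the others), SRSF3 in AsPC-1 dTAG 4 h library 3.4 (401 against 248 to 327 in the others) and SRSF4 in AsPC-1 dTAG 4 h library 2.2 (61.1 against 73.5 to 87.0 in the others). A second set in T>C CPM was SRSF4 in T3M-4 DMSO 4 h library 1.2 (94.3 against 118 to 121 in the others), SRSF6 in AsPC-1 CB-6644 12 h library 2 (366 against 269 to 277 in the others), SRSF7 in AsPC-1 CB-6644 4 h library 1.1 (1309 against 671 to 836 in the others) and TRA2A in AsPC-1 DMSO 12 h library 1 (163 against 240.3 to 254 in the others).

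In CPM of all reads the cases were SRSF1 in T3M-4 dTAG 4 h library 1.2 (114 against 81.2 to 86.7 in the others), SRSF11 in AsPC-1 DMSO 12 h library 1 (373 against 813 to 833 in the others), SRSF3 in AsPC-1 dTAG 4 h library 3.4 (232 against 156 to 186 in the others), SRSF3 in T3M-4 DMSO 4 h library 1.2 (175 against 234 to 245 in the others) and SRSF3 in T3M-4 NVP-2 4 h library 1.2 (148 against 239 to 243 in the others). Further cases in all reads were SRSF5 in AsPC-1 CB-6644 4 h library 1.1 (467 against 281 to 326 in the others), SRSF5 in AsPC-1 NVP-2 4 h library 2.2 (175 against 296 to 319 in the others), SRSF7 in AsPC-1 CB-6644 4 h library 1.1 (492 against 299.8 to 342 in the others) and TRA2B in AsPC-1 DMSO 4 h library 1.3 (112 against 70.9 to 78.1 in the others). Library 1.1 of AsPC-1 CB-6644 at 4 h was high for SRSF7 in both readouts and for SRSF5 in all reads.

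In labelled share the other cases were SRSF11 in AsPC-1 dTAG 4 h library 3.2 (14.5% against 9.65 to 11.9% in the others), SRSF3 in AsPC-1 dTAG 4 h library 3.2 (16.95% against 12.5 to 14.5% in the others) and SRSF3 in T3M-4 NVP-2 4 h library 1.2 (1.68% against 1.05 to 1.06% in the others). The dTAG library 3.2 was thus high for SRSF3 and SRSF11 at once.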

How the results depend on the processing

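The fewest T>C reads of a member in a library were 57, for SRSF1 after NVP-2, and no test of depth was run. Batch and NVP-2 are joined in AsPC-1, and there was no library without 4sU. Of the 10 members, the number called moved by over 1.5 times under these alternatives: in AsPC-1 NVP-2 T>C reads from 8 to 5 with the replicate block and to 5 with DMSO 12 h controls; in T3M-4 NVP-2 T>C reads from 4 to 10, all lower, when scaled by the total of all reads, and to 0 with counts summed per experiment (2 sums a group); in T3M-4 NVP-2 all reads from 0 to 1 with the replicate block; and in labelled share with the library share in the offset from 4 to 0 for AsPC-1 dTAG and from 10 to 6 for T3M-4 NVP-2. SRSF11 in AsPC-1 NVP-2 reversed to -1.32 in T>C reads when scaled by the total of all reads and to 0.94 in labelled share with the library share in the offset. By construction these last settings shift every gene of a library by 1 factor, and the total of all reads put the all-gene median at -3.26 in place of -0.05 (AsPC-1) and -3.09 in place of -0.12 (T3M-4). The causes of the other moves were not tested.

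Leaving out 1 library gave 4 to 7 members called in AsPC-1 dTAG labelled share, 0 to 1 in AsPC-1 CB-6644 labelled share at 4 h, 6 to 8 in AsPC-1 and 1 to 5 in T3M-4 NVP-2 T>C reads, and 4 to 7, 1 to 4 and 1 to 2 between the lines in T>C reads, all reads and labelled share. Between the T3M-4 experiments it gave 3 to 5, 3 to 6 and 3 to 5. Without 1 AsPC-1 library each, the added dTAG labelled share calls were SRSF2 (dTAG 1.4, NEG 3.3 or NEG 3.4), SRSF5 (dTAG 3.2 or NEG 3.3), SRSF11 (dTAG 3.2 or NEG 3.4) and TRA2A (dTAG 3.2). The remaining alternatives left 91 counts within 1.5 times and, for single members, 155 values on the same side of the threshold and 26 with the same direction and no call.

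By the limit of 0.1 in every pair, the replicate numbers did not pair the libraries of AsPC-1 CB-6644 at 4 h (correlations -0.06 to 0.49, 3 of 5 best with their own number), AsPC-1 NVP-2 (-0.11 to 0.17, 2 of 4) and T3M-4 NVP-2 (0.08 to 0.42, 2 of 4). There the replicate block called 5 members in AsPC-1 NVP-2 T>C reads and, in T3M-4 NVP-2 all reads, SRSF5 at -0.45 (edgeR adjusted p = 0.0293). Among the comparisons that passed this limit, the block changed member calls in AsPC-1 dTAG labelled share only, from 4 to 6.

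Counts over all genes moved more. In AsPC-1 dTAG T>C reads, 281 genes became 491 with DESeq2, 867 with the replicate block, 447 with an experiment block, 941 scaled by all reads, 103 and 16 within batches 1 and 2, and 0 with sums per experiment. In T3M-4 dTAG T>C reads, 112 became 348 (DESeq2), 298 (replicate block), 354 (experiment block), 38 (batch 1) and 0 (sums). In NVP-2 T>C reads, 3506 and 3263 became 10829 and 10680 scaled by all reads, and sums gave 0 in T3M-4. In all reads, dTAG counts of 111 and 3 became 542 and 47 with the block and 222 and 74 with DESeq2, and NVP-2 counts of 1667 and 807 became 1021 and 2626 with the block and 2749 and 1447 with DESeq2. DESeq2 called 1, 26 and 7 genes in CB-6644 T>C reads and 6, 18 and 12 in all reads (AsPC-1 4 h, 12 h, T3M-4), where edgeR called 0, 0 and 0 and 0, 0 and 2, and interaction counts of 6, 0 and 112 (dTAG, CB-6644, NVP-2) became 38, 3 and 599. With the library share in the offset, labelled share counts of 4711, 34, 384, 10995 and 11113 (AsPC-1 and T3M-4 dTAG, AsPC-1 CB-6644 at 4 h, AsPC-1 and T3M-4 NVP-2) became 170, 71, 0, 4009 and 3591, and between the lines 1607 of 1774 higher became 508 of 1670.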

Other observations

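Over the means of the 12 groups of log2 T>C CPM, centred within each line, the average of the 10 members was lowest after NVP-2, at -0.68 in AsPC-1 and -0.56 in T3M-4, and lay between 0.06 and 0.20 in the other groups. SRSF6, SRSF7 and SRSF3 followed this average with Pearson r of 0.98, 0.98 and 0.98, and SRSF11 ran against it at -0.56. Each member is part of this average, so its r is partly built in. Among 8454 other genes, those most like the average were C1orf52, CCDC71L, TRMT10C, PELO and C14orf119, with r from 0.996 to 0.997. These correlations are descriptions over 12 groups of which the NVP-2 groups hold most of the variation, and DMSO libraries and scaling are shared between points.

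In labelled share at 12 h in AsPC-1, SRSF6 was apart between the groups, with 22.9, 22.7, 22.3 and 22.1% after CB-6644 and 20.9, 21.0, 19.2 and 18.5% in DMSO, at a log2 change of 0.18 (SE 0.08, edgeR adjusted p = 1.00).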
